A study of Mus musculus with 21 samples.

Results

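The 10 genes described here take up glucose and carry it through glycolysis to lactate: Slc2a1, Hk1, Hk2, Pfkp, Aldoa, Gapdh, Pgk1, Eno1, Pkm and Ldha. They were chosen by name, and were found through their Ensembl identifiers among the 49315 genes of the count files. Transcripts of mouse epidermis were sequenced in a series on Tfap2a and Tfap2b, the genes of AP-2α and AP-2β, a pair of related transcription factors. One group was the genotype K14CreTfap2afl/flTfap2bfl/fl at 6 months of age, in which both genes carry floxed alleles and Cre recombinase is expressed from a keratin 14 promoter. Its comparison group at 6 months was WT, named in the labels as a strain-specific control. A further group was K14CreTfap2bfl/fl at 3 weeks. The keratin 14 promoter is active in basal keratinocytes, so nerve, immune and other cells of a sheet are not the ones the Cre targets, and in bulk RNA fewer cells of a type and less RNA per cell cannot be told apart. The labels do not say whether samples came from separate or pooled animals, so the p-values measure the spread between these samples.

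Glycolysis converts glucose to pyruvate, and lactate dehydrogenase can then turn pyruvate into lactate, which leaves the cell through monocarboxylate transporters. GLUT1, the product of Slc2a1, is the main glucose transporter of keratinocytes, and hexokinase traps glucose in the cell by phosphorylation. Cells that divide or repair a wound often run glycolysis at a high rate even where oxygen is present, and the transcription factors HIF-1 and MYC are well-known activators of its genes.

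Of the 21 samples, 13 had files with every gene at 0. The 8 libraries with counts were the 3 controls and the 3 libraries labelled double knockout at 6 months, and 2 libraries labelled Tfap2b knockout at 3 weeks, with 11318181 to 17746284 counts each. Tfap2a stood at 165, 140.3 and 210.1 counts per 1000000 (CPM) in the controls and at 229, 213 and 309 CPM where the label said double knockout. Tfap2b stood at 57.3, 86.6 and 71.03 against 53.8, 57.2 and 56.9 CPM. Neither gene was lost at the level of whole-gene counts (edgeR adjusted p 0.118 and 0.111), which take in exons outside a deleted part, so every direction given here is that of libraries as labelled. Keratin genes of basal keratinocytes were abundant in all 8, with Krt5 at 2434 CPM or more. Control replicates 1 and 2 carried 1.61 and 3.19 counts per exonic kb in odorant and vomeronasal receptor genes, against 0.147 in control replicate 3. Replicates 1 to 3 labelled double knockout carried 0.195, 0.106 and 0.132. At 6 months this background was thus raised in control libraries only, so it runs along the comparison tested and can add to control counts of low-level genes. Replicate 1 at 3 weeks stood apart, with 2275 CPM over 6 adipocyte genes and 2633 CPM over 7 dermal fibroblast genes, against 0.56 and 17.5 CPM in replicate 2.

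Regions before the start sites are shown for the glucose transporter Slc2a1, which did not pass the test, and for Hk2, Pgk1 and Ldha, which rose. They are from RefSeq on GRCm38.p6, on the strand of the gene. Capitals mark ACGTG, the core of the element that HIF-1 binds, on either strand (CACGT when read on the other), and GCCNNNGGC, a consensus of AP-2 factors. They cover chr4:119108495-119108713, chr6:82774455-82774704, chrX:106186850-106187099 and chr7:46845554-46845803. The Slc2a1 stretch, of 219 bases, stops at the end of its ACGTG and short of the RefSeq start site. The others, of 250 bases each, run up to theirs.
Slc2a1: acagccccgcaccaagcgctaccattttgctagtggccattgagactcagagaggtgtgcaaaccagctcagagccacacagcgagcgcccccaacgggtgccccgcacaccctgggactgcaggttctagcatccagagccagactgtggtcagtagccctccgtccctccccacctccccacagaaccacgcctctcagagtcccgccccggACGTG
Hk2: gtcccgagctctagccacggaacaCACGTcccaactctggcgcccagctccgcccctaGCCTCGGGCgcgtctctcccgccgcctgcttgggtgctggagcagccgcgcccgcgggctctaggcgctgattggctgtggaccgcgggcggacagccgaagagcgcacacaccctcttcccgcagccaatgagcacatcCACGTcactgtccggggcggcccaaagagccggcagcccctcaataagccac
Pgk1: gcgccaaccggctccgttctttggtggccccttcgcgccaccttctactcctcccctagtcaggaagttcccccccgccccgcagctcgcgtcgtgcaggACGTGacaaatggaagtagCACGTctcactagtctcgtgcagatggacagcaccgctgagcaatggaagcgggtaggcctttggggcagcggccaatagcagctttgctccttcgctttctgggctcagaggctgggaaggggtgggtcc
Ldha: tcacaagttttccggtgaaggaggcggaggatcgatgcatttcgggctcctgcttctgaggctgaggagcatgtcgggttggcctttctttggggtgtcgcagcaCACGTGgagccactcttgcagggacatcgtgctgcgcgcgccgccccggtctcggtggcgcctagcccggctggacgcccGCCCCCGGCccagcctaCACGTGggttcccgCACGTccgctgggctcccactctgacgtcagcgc

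Windows of 300 bases, from 250 before to 50 after a RefSeq start site, were searched for these letters, and the 10 genes had 17 such windows. ACGTG was present in 9 of these 17 windows and in at least 1 window of 8 of the 10 genes, all but Pfkp and Eno1, against 19.6% of all 32851 windows and 28.1% of the tested genes with a window. The 9 windows include overlapping windows of Aldoa that hold the same site, at -126 and -202 from different start sites. All 32851 windows belong to 27025 genes, so the 10 genes had more windows per gene, which can raise a share of genes. Its first base lay at -36 in Slc2a1, at -226 and -52 in Hk2, and at -150 and -131 in Pgk1. The E-box CACGTG, bound by MYC and by carbohydrate-response factors, contains ACGTG on both strands. Among the 10 genes it was found in Ldha, at -145 and -48, and it is present in 7.15% of all windows. GCCNNNGGC was found in Hk2 at -192, in Ldha at -65, in Pkm at -99 and in Eno1. In Eno1 it was the same site, read at -205 and -232 from different start sites. GCCNNNGGC is present in 27.9% of the tested genes with a window. Of the genes that passed the test, Hk2, Pgk1, Pkm and Ldha held ACGTG and Eno1 did not. Of those that did not pass, Slc2a1, Hk1, Aldoa and Gapdh held it and Pfkp did not. These matches describe letters and not bound sites, and a role of HIF-1 or AP-2 factors at them was not tested.

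The comparison at 6 months asked which of these transcripts differ in adult epidermis when both AP-2 genes are targeted. Hexokinase 2 and several later steps of the pathway were higher in the libraries labelled double knockout, and no difference was detectable in Slc2a1, Hk1 or Pfkp. Hk2, Pgk1, Eno1, Pkm and Ldha rose, by 1.70-fold to 2.06-fold. In all, 5 of the 10 genes passed an adjusted p of 0.05 as higher in edgeR's quasi-likelihood test, where 6.26% of the 17755 genes tested did so, and 0 of the 10 passed as lower, nor did any at an unadjusted p under 0.05 or by DESeq2 or limma-voom. The unadjusted count as higher was 7. The median log2 fold change of the 10 was 0.74, and 9 of 10 were above 0, against a median of -0.04 and 47.8% above 0 over all genes tested. In 7 of the 10 every library labelled double knockout lay above every control, which held for 22.5% of the tested genes. All 10 genes passed the filter on low counts, each with at least 503 counts in every library of the 2 groups.

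Together the 10 genes took 0.205%, 0.183% and 0.180% of the counts in controls 1 to 3. They took 0.254%, 0.287% and 0.377% in replicates 1 to 3 labelled double knockout. The groups did not overlap in this sum. Replicate 3 of the latter was the highest of its group for all 10 genes and replicate 1 the lowest for 9 of 10, so the genes kept nearly the same order of libraries. Among the controls replicate 1 was the highest for 6 genes and replicate 3 for 3.

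**Figure D1:**
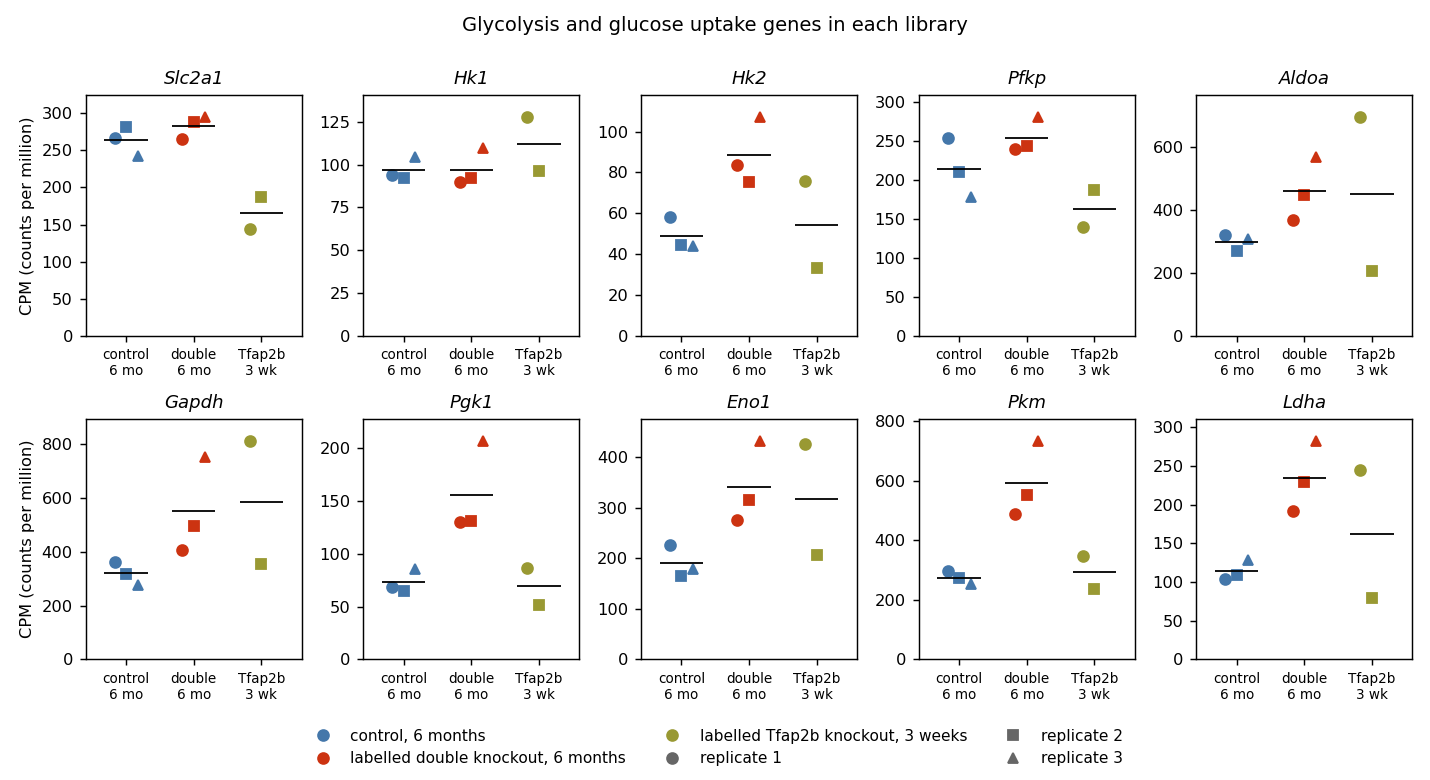
Counts per 1000000 (vertical axis, from 0) of each of the 10 genes in the 8 libraries with counts; colours mark the group, shapes the replicate number and black lines the mean. For Hk2, Aldoa, Gapdh, Pgk1, Eno1, Pkm and Ldha all 3 red points lie above all 3 blue points, and the red triangle is the highest red point in all 10 panels.

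Slc2a1 (ENSMUSG00000028645, chromosome 4, 119108711 to 119137983, plus strand; coordinates here are those of the files, on GRCm38) encodes GLUT1. It stood at 267, 282 and 242 CPM among controls, against 266, 289 and 295 CPM under the double knockout label. The groups overlapped, and the values in all 6 libraries lay close together. In edgeR the difference on the log2 scale was 0.03 (SE 0.13, adjusted p 0.909), with a 95% interval of the fold from 0.835 to 1.24, so a rise as large as the 1.70-fold of Eno1 lies outside the interval. The sign is not settled, since the log2 fold change was -0.01 with at least 10 counts required in every library and -0.05 with the receptor-gene background subtracted.

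Hexokinase phosphorylates glucose, and the hexokinases of keratinocytes are encoded mainly by Hk1 and Hk2. Hk1 (ENSMUSG00000037012, chromosome 10, 62268855 to 62379908, minus strand), the form present in most tissues, stood at 94.2, 92.3 and 105 CPM among controls, against 89.8, 92.0 and 109 CPM under the double knockout label. The groups overlapped, and the log2 difference of -0.07 (SE 0.14 and, in edgeR, adjusted p 0.748; fold 0.767 to 1.18) took the other sign in 4 of the alternatives. Hk2 (ENSMUSG00000000628, chromosome 6, 82725025 to 82774454, minus strand), the form that many growing tissues induce, stood at 58.3, 44.4 and 43.9 CPM among controls, against 83.4, 75.4 and 107 CPM under the double knockout label. Every one of the latter lay above the highest control, control replicate 1. Hk2 rose 1.72-fold (log2 0.78, SE 0.19, edgeR adjusted p 0.0243; fold 1.29 to 2.30). It was no longer past the threshold without control replicate 2 (log2 fold change 0.72), without replicate 1 labelled double knockout (0.88) or without replicate 3 of that label (0.66).

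Phosphofructokinase makes fructose 1,6-bisphosphate, and this reaction commits the sugar to glycolysis. Pfkp (ENSMUSG00000021196, chromosome 13, 6579768 to 6648777, minus strand), the platelet form, stood at 253, 209.7 and 178 CPM among controls, against 239.7, 243 and 281 CPM under the double knockout label. Control replicate 1 lay above 2 of those 3 libraries. In edgeR the difference on the log2 scale was 0.18 (SE 0.16, adjusted p 0.477; fold 0.882 to 1.45). Exons of Pfkp share 372 bases with Pitrm1 on the opposite strand, and strand use in the counting was not stated.

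Aldolase splits the 6-carbon sugar into 3-carbon sugars, and Gapdh then oxidises one of them. Aldoa (ENSMUSG00000030695, chromosome 7, 126795234 to 126809108, minus strand) stood at 318, 268 and 307 CPM among controls, against 366, 446 and 568 CPM under the double knockout label. Gapdh (ENSMUSG00000057666, chromosome 6, 125161715 to 125166467, minus strand) stood at 364, 318 and 277 CPM among controls, against 409, 495 and 754 CPM under that label. In both genes the groups did not overlap, and replicate 3 labelled double knockout stood well above its group. Neither passed the threshold: the log2 fold change of Aldoa was 0.55 (SE 0.18, edgeR adjusted p 0.0594; fold 1.12 to 1.92) and that of Gapdh 0.72 (SE 0.23, edgeR adjusted p 0.0633; fold 1.15 to 2.34).

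Both calls were close to the threshold and changed with the processing. With total counts as the only scaling, Aldoa (0.62) and Gapdh (0.78) both passed it, and they also did so without a filter on low counts and in DESeq2. Aldoa passed it without control replicate 3 (0.66) and Gapdh without replicate 1 labelled double knockout (0.95). Without replicate 3 of that label the log2 fold changes fell to 0.40 for Aldoa and 0.46 for Gapdh. For Gapdh 93 other genes, 88 of them pseudogenes, hold a near-identical stretch, and their counts came to 11.7% to 12.8% of its own in the controls and 3.35% to 12.1% under the double knockout label, so its value is uncertain.

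Pgk1 (ENSMUSG00000062070, chromosome X, 106187100 to 106203699, plus strand) encodes the phosphoglycerate kinase that makes the first ATP of the pathway. It stood at 68.9, 64.3 and 85.9 CPM among controls, against 129.8, 131 and 207 CPM under the double knockout label. The lowest of the latter was well above the highest control, and replicate 3 stood above the other 2. Pgk1 rose 2.03-fold (log2 1.02, SE 0.21, edgeR adjusted p 0.0135; fold 1.47 to 2.80). It was no longer past the threshold without control replicate 1 (0.99) or control replicate 2 (0.94), and it stayed past it without replicate 3 labelled double knockout (0.79).

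Enolase forms phosphoenolpyruvate, and Eno1 (ENSMUSG00000063524, chromosome 4, 150236721 to 150248879, plus strand) encodes its ubiquitous form. It stood at 227, 165 and 179 CPM among controls, against 275, 316 and 432 CPM under the double knockout label. The groups did not overlap. Eno1 rose 1.70-fold (log2 0.77, SE 0.20, edgeR adjusted p 0.0317; fold 1.25 to 2.31), and it was no longer past the threshold without control replicate 2 (0.68), without replicate 2 labelled double knockout (0.86) or without replicate 3 of that label (0.59). Reads can be split between Eno1 and its near-identical copy Eno1b. Summed over both genes the level was 235, 177 and 202 against 306, 347 and 456 CPM, so the groups did not overlap in the sum either.

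Pyruvate kinase makes pyruvate, and Pkm (ENSMUSG00000032294, chromosome 9, 59656368 to 59679375, plus strand) encodes both M1 and M2 forms, which gene counts do not separate. It stood at 296, 272 and 252 CPM among controls, against 490.5, 554 and 735 CPM under the double knockout label. The groups did not overlap. Pkm rose 2.06-fold (log2 1.04, SE 0.17, edgeR adjusted p 0.00589; fold 1.58 to 2.69). It passed the threshold in each of the 6 fits that left out 1 library, at 0.89 to 1.22. Gm49759, a gene model on the same strand with no settled class, shares 767 exonic bases with Pkm (15.3% of its exon length). Gm49759 itself had a log2 difference of -0.02 (SE 0.15 and, in edgeR, adjusted p 0.953), and the ratio of mean CPM was 2.17 for Pkm alone and 1.87 with the counts of Gm49759 added.

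Lactate dehydrogenase A, the product of Ldha (ENSMUSG00000063229, chromosome 7, 46841475 to 46855627, plus strand), reduces pyruvate to lactate. Ldha stood at 104, 109 and 129 CPM among controls, against 192, 229 and 282 CPM under the double knockout label. Every library of the latter lay above the highest control, control replicate 3. Ldha rose 1.96-fold (log2 0.97, SE 0.17, edgeR adjusted p 0.00674; fold 1.51 to 2.54), and it passed the threshold without any 1 of the 6 libraries, at 0.84 to 1.15. With the 3-week libraries added to the fit it did not pass (1.01, edgeR adjusted p 0.102).

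With control replicates 1 and 2 both left out, a choice made after seeing the receptor-gene counts, 1 control was set against 3 libraries and was assumed to vary as they do. Then 0 of the 10 genes passed the threshold in edgeR (5 at an unadjusted p under 0.05), where 1.03% of the genes tested were called higher. The log2 fold changes of the 5 genes were then 0.96 for Hk2, 0.81 for Pgk1, 0.87 for Eno1, 1.18 for Pkm and 0.81 for Ldha, with edgeR adjusted p from 0.0771 to 0.269. In that fit the direction of all 5 was as with 3 controls. With the receptor-gene background subtracted instead, the same 5 genes passed.

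**Figure D2:**
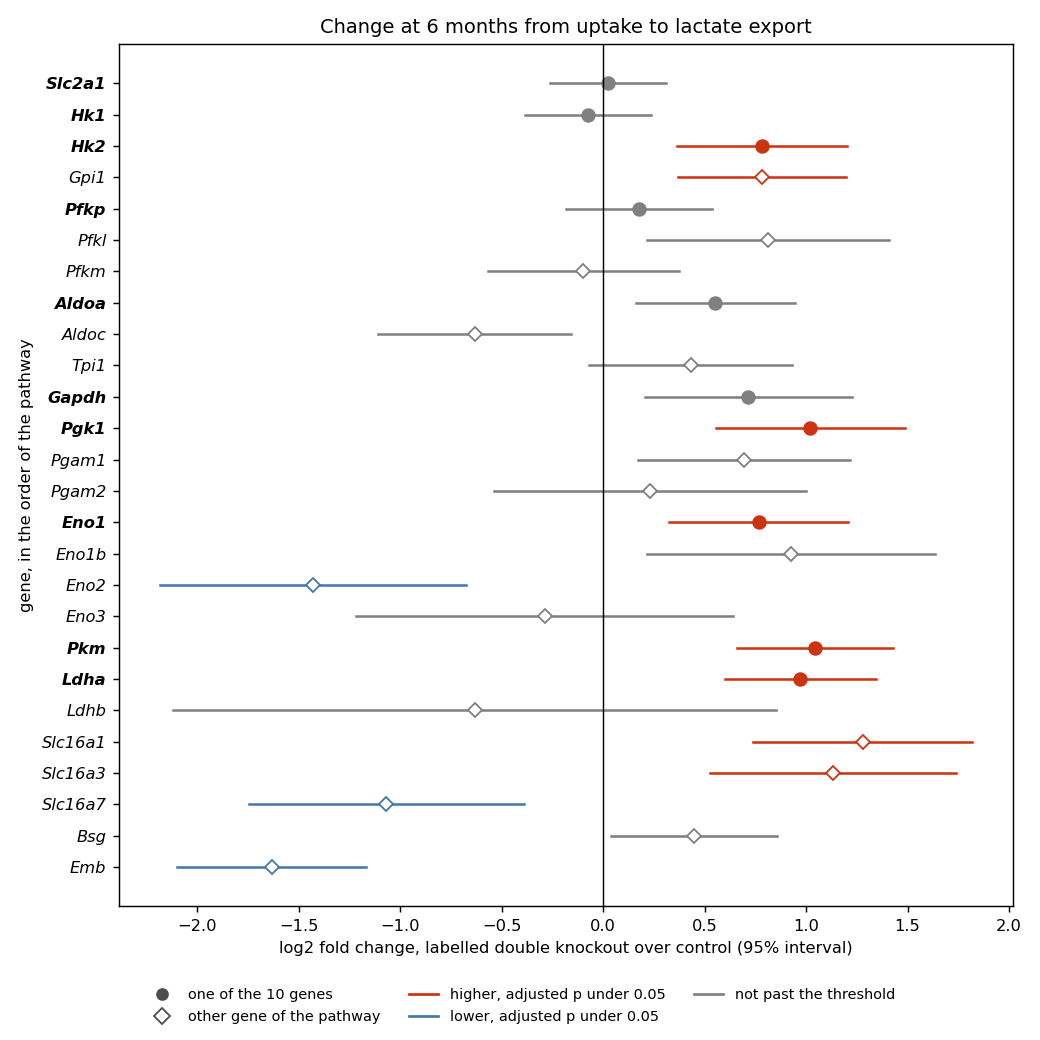
Log2 fold change (horizontal axis, with its 95% interval) of the 10 genes (filled circles) and of other genes of the pathway (open diamonds), from glucose uptake at the top to lactate export at the bottom; colour marks the call. The intervals of Slc2a1, Hk1 and Pfkp span 0, and those of Hk2, Pgk1, Eno1, Pkm and Ldha lie above it.

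Of 20 genes for the other steps and isoenzymes 15 were tested, 2 were higher and 1 lower past the threshold, and their median log2 fold change was 0.23. The calls were 13.3% and 6.67% of the list, against 6.26% and 8.59% of all genes tested. Gpi1, which converts glucose 6-phosphate to fructose 6-phosphate, stood at 140.4, 118 and 181 CPM among controls, against 219.6, 265 and 311 CPM under the double knockout label, so they did not overlap. Gpi1 rose (log2 0.78, SE 0.19, edgeR adjusted p 0.0237), but not without control replicate 1 (0.76), control replicate 2 (0.65), or replicates 2 (0.82) or 3 (0.68) labelled double knockout. Adpgk, an ADP-dependent glucokinase, rose from 18.9, 31.1 and 31.1 to 60.04, 53.4 and 54.2 CPM (log2 0.97, SE 0.20, edgeR adjusted p 0.0142), and was past the threshold except without replicate 1 labelled double knockout (0.96). Eno2, the enolase of neurons, fell from 6.15, 6.72 and 5.27 to 2.25, 1.91 and 2.65 CPM (log2 -1.43, SE 0.34, edgeR adjusted p 0.0205), and was not past it without control replicate 2 (-1.35) or without replicate 1 (-1.37), 2 (-1.29) or 3 (-1.52) labelled double knockout.

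Pgam1, Tpi1 and Pfkl had log2 fold changes above 0 without passing the test. Pgam1, the phosphoglycerate mutase of most tissues, held 35.8, 26.3 and 29.6 against 42.7, 42.7 and 71.1 CPM (log2 0.70, edgeR adjusted p 0.0721). Tpi1, triose phosphate isomerase, overlapped between the groups (log2 0.43, edgeR adjusted p 0.213), as did the liver-type phosphofructokinase Pfkl (log2 0.81, edgeR adjusted p 0.0678). Among other tested isoenzymes, Aldoc (-0.63), Bpgm (-0.55), Eno3 (-0.29) and Pfkm (-0.10) had values below 0. Eno1b (0.92), Gapdhs (0.51), Pgam2 (0.23) and Eno4 (0.08) had values above 0, and none of these 8 passed. Hk3, Hkdc1, Pgk2 and Pklr had too few counts to be tested.

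Levels of different genes can be compared roughly per exonic length, as counts per exonic kb scaled to a sum of 1000000 in each library. The length is that of all annotated exons of a gene, which can exceed that of the transcripts expressed. On this scale the controls had Aldoa at 207.5 ± 50.2 (SD, n = 3), Gapdh at 199 ± 28.6 and Slc2a1 at 194 ± 20.6, whose ranges overlapped. Pkm followed at 141 ± 20.6, below the range of Slc2a1 and above that of Eno1. Eno1 (92.2 ± 22.2), Ldha (90.6 ± 26.8) and Pgk1 (86.3 ± 29.7) overlapped with one another, and Pfkp (58.4 ± 9.76), Hk1 (29.8 ± 7.60) and Hk2 (21.2 ± 4.47) were the lowest. Hk1 overlapped with Hk2 in range, but it lay above Hk2 in each control.

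In the libraries labelled double knockout the order on the same per-length scale was not the same. Gapdh (382 ± 116), Aldoa (350.1 ± 72.4) and Pkm (339 ± 66.2) overlapped with each other at the top, and Slc2a1 (232 ± 14.9) lay below the range of Pkm. Ldha (203 ± 36.5), Pgk1 (198 ± 51.3) and Eno1 (181 ± 39.9) overlapped, with Pfkp (77.6 ± 5.46) below them. Hk2 (42.5 ± 6.69) now lay above Hk1 (32.6 ± 2.96) in all 3 libraries, with no overlap. In CPM Hk1 (89.8, 92.0 and 109 CPM) was instead above Hk2 (83.4, 75.4 and 107 CPM) in each of these libraries. The order of Hk1 and Hk2 thus depends on the exon lengths used, 8532 bases for Hk1 and 5969 for Hk2. On the per-length scale Slc2a1 overlapped in range with Ldha, and lay above it in 2 of 3 libraries.

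**Figure D3:**
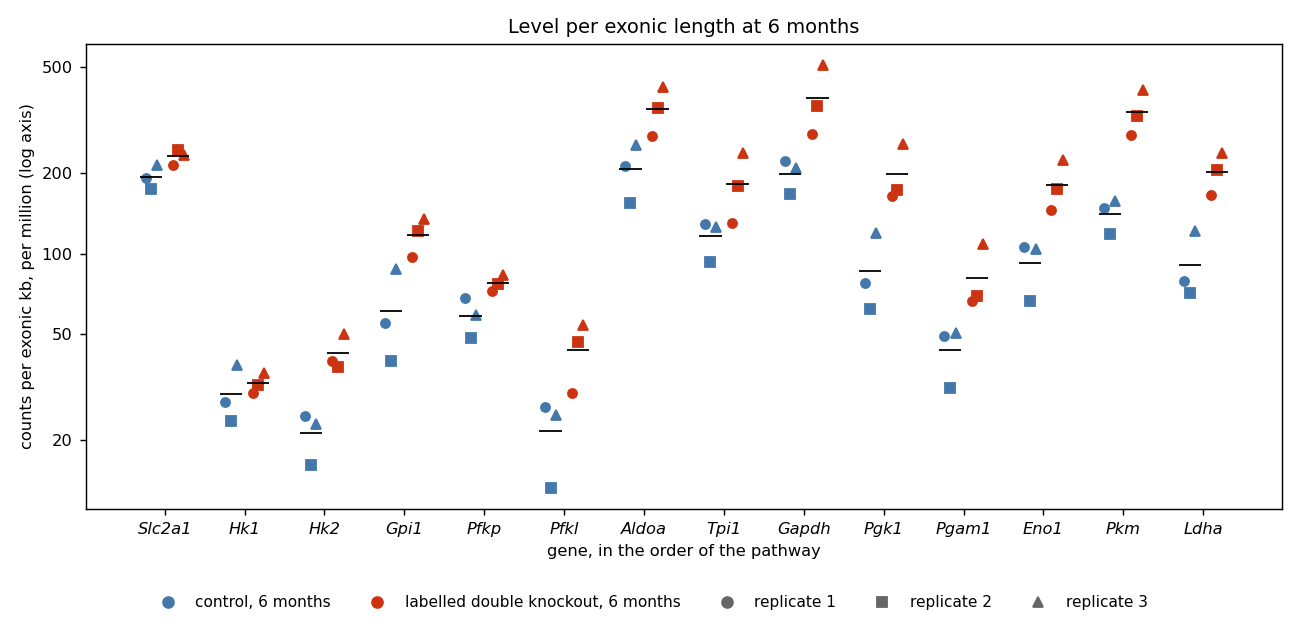
Counts per exonic kb, scaled to a sum of 1000000 per library (vertical log axis), for the 10 genes and for Gpi1, Pfkl, Tpi1 and Pgam1 in pathway order; each point is a library at 6 months, its shape the replicate number, and black lines are means. Blue and red lie close together for Slc2a1 and Hk1, and apart for Hk2, Pgk1, Pkm and Ldha.

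The share that 1 isoenzyme takes of its step, per exonic length, is free of the scaling between libraries. The size of a share depends on the exon lengths used, here those of all annotated exons. Hk2 made up 47.0%, 40.8% and 37.5% of Hk1 and Hk2 together in the controls. It made up 57.04%, 54.0% and 58.3% of them in the libraries labelled double knockout. The groups did not overlap, and the means differed by 14.7 percentage points (41.7 ± 4.81 against 56.4 ± 2.25, SD, n = 3 each). No test was made of the shares, and the difference was 12.6 to 17.3 points with each library left out in turn.

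Ldha made up 95.5%, 91.6% and 97.4% of Ldha and Ldhb in the controls and 98.98%, 99.1% and 97.3% in the other group, so that lactate dehydrogenase transcripts were nearly all of the A form in every library. The ranges overlapped. Pfkp gave 64.9%, 69.6% and 61.6% of the phosphofructokinase transcripts Pfkp, Pfkl and Pfkm in the controls, against 64.3%, 56.6% and 56.7%. These also overlapped, with a mean difference of -6.17 points (-8.73 to -4.07 with each library left out in turn, the smallest without control replicate 2). Slc2a1 gave over 99% of Slc2a1 and Slc2a3 in all 6 libraries, at 99.04% to 99.9%, so the neuronal glucose transporter gene Slc2a3 added little.

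**Figure D4:**
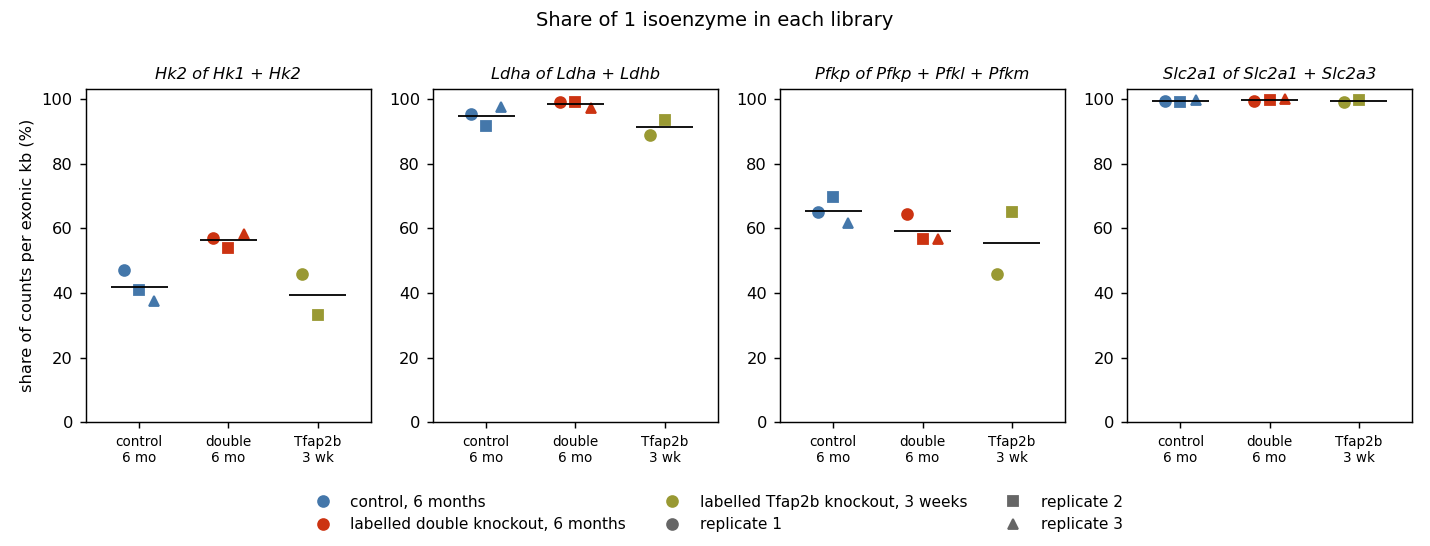
Share of counts per exonic kb (vertical axis, percent, from 0) taken by Hk2, Ldha, Pfkp and Slc2a1 among the isoenzymes named above each panel; each point is a library and black lines are means. Of the 4 panels, only that of Hk2 has all 3 red points above all 3 blue points, at 54.0% to 58.3% against 37.5% to 47.0%.

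Lactate export and sugar uptake by other carriers were read from lists chosen by pathway. Of 9 genes of lactate and monocarboxylate handling 8 were tested, and 2 were higher and 2 lower (median log2 fold change -0.52). Each was 25.0% of the list, against 6.26% higher and 8.59% lower of all genes tested. Slc16a1, which encodes the monocarboxylate transporter MCT1, stood at 33.05, 35.0 and 28.2 CPM among controls, against 69.96, 61.3 and 115 CPM under the double knockout label. The groups did not overlap, and Slc16a1 rose (log2 1.28, SE 0.24, edgeR adjusted p 0.0106), also without any 1 library (0.99 to 1.49). Slc16a3, which encodes the lactate exporter MCT4, rose from 24.3, 13.7 and 15.2 to 30.6, 41.5 and 51.0 CPM (log2 1.13, SE 0.27, edgeR adjusted p 0.0247). It was not past the threshold without control replicate 2 (0.98) or without replicate 2 (1.16) or 3 (0.98) labelled double knockout. Their chaperone gene Bsg did not pass (log2 0.45, edgeR adjusted p 0.125), although its groups did not overlap.

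Embigin, the product of Emb and a partner of monocarboxylate transporters, moved the other way. Emb stood at 171, 137 and 131 CPM among controls, against 58.7, 55.8 and 34.7 CPM under the double knockout label. Emb fell (log2 -1.63, SE 0.21, edgeR adjusted p 0.00178), also without any 1 library (-1.71 to -1.39). Slc16a7, which encodes MCT2, fell from 7.89, 11.04 and 6.97 to 3.62, 4.23 and 4.90 CPM (log2 -1.07, SE 0.30, edgeR adjusted p 0.0403), a call lost without control replicate 1 (-1.12), control replicate 2 (-0.85), or replicate 1 (-0.92), 2 (-1.02) or 3 (-1.15) labelled double knockout.

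Of 13 other sugar transporter genes 9 were tested, 3 were higher and 1 lower, and the median log2 fold change was -0.62. These were 33.3% and 11.1% of the list, against 6.26% and 8.59% of all genes tested. Slc5a1, the sodium-coupled glucose transporter SGLT1, rose from 15.0, 25.5 and 24.8 to 82.6, 38.7 and 105.5 CPM (log2 1.72, SE 0.36, edgeR adjusted p 0.0185). Its call was lost without control replicate 1 (1.52) or replicate 1 labelled double knockout (1.70). Slc2a12 (log2 1.00, edgeR adjusted p 0.0345) and the fructose transporter gene Slc2a5 (log2 0.70, edgeR adjusted p 0.0409) rose as well, and Slc2a4, the insulin-responsive GLUT4 gene, fell at low level from 1.66, 2.47 and 2.21 to 0.29, 0.136 and 0.676 CPM (log2 -2.19, edgeR adjusted p 0.0361). These 3 calls were lost without control replicate 1 (Slc2a12 0.94, Slc2a5 0.58, Slc2a4 -2.34), control replicate 2 (0.89, 0.79 and -2.08), and replicate 1 (1.14, 0.76 and -2.05) or 2 (0.69, 0.75 and -1.87) labelled double knockout. The calls of Slc2a5 (0.71) and Slc2a4 (-2.68) were lost without replicate 3 of that label too. Slc2a1, at 242 CPM or more in each of the 6 libraries, was not among the transporter genes that rose.

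In 8 lists of pathways that branch from or follow glycolysis 14 of 98 tested genes were called (14.3%), a share near the 14.9% of all genes tested. Of the 5 genes of the enzymes that set fructose 2,6-bisphosphate (Pfkfb1 to Pfkfb4 and Tigar) 0 passed in edgeR (0 at an unadjusted p under 0.05), with a median of -0.14. Of 13 genes of pyruvate entry into mitochondria 0 passed in edgeR (1 at an unadjusted p under 0.05), with a median of -0.08. DESeq2 and limma-voom called 0 in both lists. Among 9 genes of the pentose phosphate pathway 1 was higher and 1 lower, and 7 lay above the controls without overlap, as did 22.5% of all genes tested (median 0.44). For 16 genes of the TCA cycle the counts were 1 higher and 1 lower, with a median of 0.35. Of these 16, 12 had log2 fold changes above 0, and 9 lay above and 1 below the controls without overlap. Of 18 nuclear genes of the respiratory chain 1 was higher and 0 lower, and all 18 log2 fold changes were above 0, from 0.04 to 0.71 (median 0.34). In this list 11 lay above the controls without overlap and 0 below, against 22.5% and 16.3% of all genes tested. For 17 tested genes of glycogen metabolism 1 was higher and 3 were lower, for 5 of gluconeogenesis 0 and 1, and for 15 of the hexosamine, serine and polyol branches 3 and 1. Over these and the other lists, 13 in all, 17 of 167 tested genes were higher and 15 lower, with a median of 0.08, against 6.26% and 8.59% of all genes tested. In these 13 lists 5 of the 32 calls held in all 6 fits that left out 1 library, those of Slc16a1, Emb, Uap1, Mlxip and Car12.

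Of 21 tested regulators of glycolytic genes 2 were higher and 3 lower (23.8%, against 14.9% of all genes tested), with a median log2 fold change of 0.03. Groups did not overlap for 7 of them above and 5 below the controls, against 22.5% and 16.3% of all genes tested. Hif1a held 427, 304 and 291 against 503, 449 and 378 CPM and did not pass (log2 0.30, SE 0.18, edgeR adjusted p 0.274), nor did Myc (log2 -0.25, SE 0.31, edgeR adjusted p 0.627); both are named outside the rule, after their values were seen, as is Bsg. Egln3, a prolyl hydroxylase gene that HIF induces, rose from 69.8, 65.03 and 75.9 to 121, 129.8 and 212.5 CPM (log2 1.06, SE 0.22, edgeR adjusted p 0.0136), and was not past the threshold without control replicate 1 or 2, with log2 fold changes of 0.79 to 1.26 over the 6 fits. Mlxip, a glucose-sensing factor, fell from 278, 222 and 162 to 97.4, 102 and 95.9 CPM (log2 -1.24, SE 0.19, edgeR adjusted p 0.00419). Among 16 hypoxia-response genes outside glycolysis 1 was higher and 1 lower, with a median of 0.03. Each was 6.25% of the list, near the 6.26% higher and 8.59% lower of all genes tested. Car12, a carbonic anhydrase gene, rose from 33.7, 46.03 and 63.2 to 147, 143 and 208 CPM (log2 1.73, SE 0.24, edgeR adjusted p 0.00301), and Ndrg1 fell (log2 -1.16, SE 0.25, edgeR adjusted p 0.0178), though not without replicate 1 or 2 labelled double knockout (-1.27 to -0.85 over the 6 fits).

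Several marker lists moved between the same groups, and their part in the rise of the glycolytic genes was not tested. Over all genes tested 6.26% were called higher and 8.59% lower, to be set beside each count that follows. The sum of 7 basal keratinocyte genes was 8224 to 10485 CPM in the controls and 15753 to 18754 CPM in the libraries labelled double knockout, with 5 of 7 genes higher. Trp63 did not pass (log2 0.32). The basal gene Krt15 went the other way without passing (log2 -1.39, edgeR adjusted p 0.0513). It stood at 728, 1164 and 1187 CPM among controls, against 234, 672.5 and 330 CPM under the double knockout label. The sum of 8 proliferation genes was 157 to 250.2 against 405 to 546 CPM, with 6 of 8 higher. Pcna (log2 -0.33) and Rrm2 (log2 0.03) did not pass, and their groups overlapped. For 8 genes of wound and stress keratinocytes the sum was 470.4 to 737 against 3502 to 4634 CPM, with 4 of 8 higher. Over 7 neutrophil genes it was 0.846 to 7.51 against 79.5, 35.5 and 269 CPM, with 1 of the 4 tested genes higher. The called gene was Cxcr2, a chemokine receptor gene, at 0.498, 0.265 and 0.326 CPM among controls and 45.9, 28.4 and 25.4 CPM under the double knockout label (log2 5.98, edgeR adjusted p 9.87e-05). S100a8 (24.04, 4.23 and 172 CPM under that label) and S100a9 (7.60, 2.52 and 70.83 CPM), which stressed keratinocytes also express, did not pass. Both were highest in replicate 3, where all 10 glycolytic genes were highest in their group. Under the same label Ly6g, Mpo and Retnlg stood at 0.273 CPM or less and Csf3r at 1.88 CPM or less. The marker genes named so far in this paragraph were chosen after their values were seen. Dermal fibroblast genes went from 58.4 to 168 down to 13.3 to 24.9 CPM, with 4 of 7 lower, and 10 skeletal muscle genes summed to 20.2, 19.7 and 5.21 CPM in the controls and to 2.54 to 3.75 CPM in the other group. Sebaceous gland genes summed to 1141 to 1308 CPM in the controls and 554 to 621 CPM under the double knockout label, with 2 of 7 tested genes lower. The sum of granular and cornified layer genes went from 2949 to 4728 down to 1352 to 2401 CPM, with 2 of 6 lower. The list was mixed, since 3 of the 6 had log2 fold changes above 0 without passing. They were Flg (1.01), Casp14 (0.86) and Ivl (0.05), also named after their values were seen. Hair follicle stem cell genes overlapped in their sums (256 to 407 against 131 to 338 CPM), with 2 of 6 lower.

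At 3 weeks only values can be given, since control libraries of that age were not analysed here. Replicate 1 against replicate 2 held 694 and 207 CPM of Aldoa, 813 and 356 CPM of Gapdh, 427 and 206 CPM of Eno1, 245 and 79.7 CPM of Ldha, and 75.6 and 33.3 CPM of Hk2. For Slc2a1 (144 and 187 CPM) and Pfkp (139 and 187 CPM) replicate 2 was the higher. Both libraries held less Slc2a1 than any library at 6 months. Replicate 1 is the one that stood apart by adipocyte and dermal genes, and the part of these cells in its values was not tested.

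The genes whose profiles lay closest to 3 of the 10 were sought over the 8 libraries, among 9082 tested genes with a mean of at least 10 CPM, by the root mean square difference of centred log2(CPM + 1). Closest to Slc2a1 were Socs6 (0.0828), Eif2s1 (0.101) and Syncrip (0.106), while the nearest of the 10 genes, Pfkp, lay at 0.162. Closest to Hk2 were Ralb (0.170), Tgfbr2 (0.176) and Wdfy1 (0.177), with Pkm at 0.220. Closest to Ldha were Sema4c (0.170), Bak1 (0.172) and Hist1h4f (0.175), with Aldoa at 0.238. Each of the 3 genes thus had at least 3 genes outside the 10 that followed it more closely than any of the other 9 did. With 9082 genes searched against 9, that outcome was likely beforehand. It therefore does not show whether the 10 genes moved together.

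**Figure D5:**
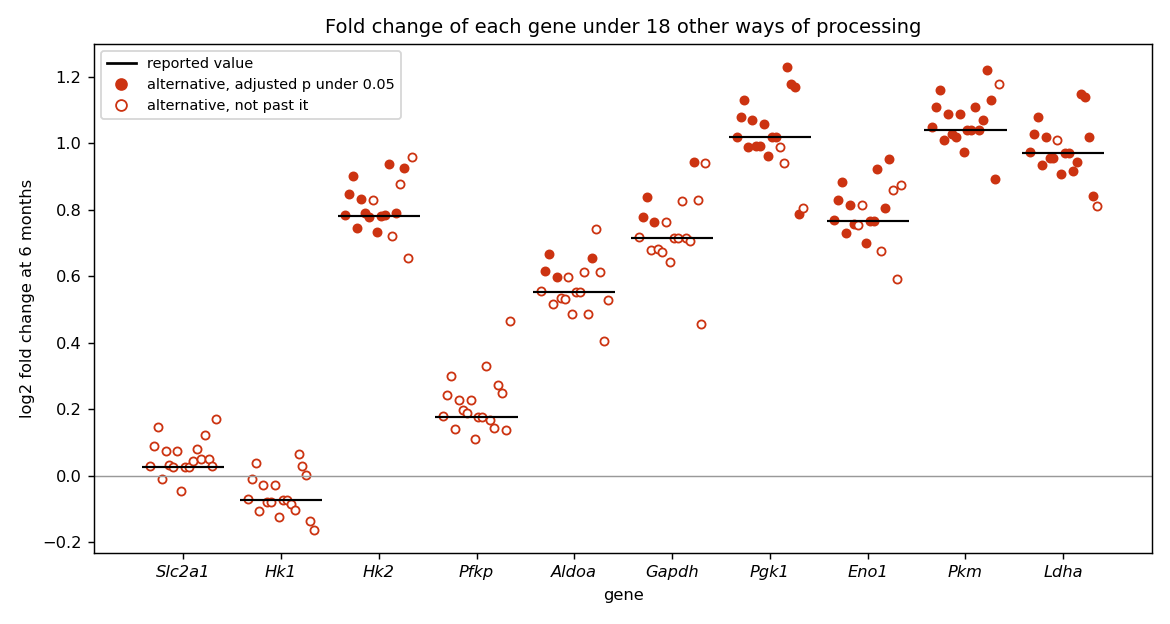
Log2 fold change at 6 months (vertical axis) of each of the 10 genes under 18 other ways of processing (points, filled where the adjusted p was under 0.05) and as reported (black lines). Every point of Hk2, Aldoa, Gapdh, Pgk1, Eno1, Pkm and Ldha lies above 0, and the points of Slc2a1 and Hk1 fall on both sides of it.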

How the data were processed

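RNA was measured in epidermis by sequencing, and the deposited values are whole-number counts of reads per gene that the authors made with 1 file per sample. Per the submitters' processing notes, the tools were Trimmomatic 0.36, STAR 2.5.2b and featureCounts from Subread 1.5.2, and the builds named were GRCm38 and GRCh38. Strand use and the treatment of reads with several matches are not given in the sources used here. Identifiers were matched to GENCODE M21 symbols (49056 of 49315). CPM are counts per 1000000 of a library's total. Groups came from the labels, and libraries of 11318181 to 17746284 counts entered.

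Libraries at 6 months were compared with edgeR 4.0.16 in R 4.3.3 (filterByExpr, TMM scaling, robust quasi-likelihood fit, prior count 2), and p-values were Benjamini-Hochberg adjusted over 17755 genes, with a threshold of 0.05. DESeq2 1.42.0 and limma 3.58.1 (voom) were alternatives, among 17 planned and 1 added. The procedure was tested on simulated data, where it called 36 of 100 genes changed 2-fold and 72 of 100 changed 4-fold. In these data 0 calls of changed genes had the wrong direction, and 6 unchanged genes were called. A gene that was not called can therefore still differ by 2-fold. Near-identical copies (at least 95% over 150 bases) were sought with blastn 2.17.0. Length-scaled levels used the exons in the files. Intervals are 95%.

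The 10 genes and all lists were chosen with earlier results of these data known. Named genes, apart from markers and others said to be chosen after their values were seen, are the 10, the genes of the list of remaining glycolytic steps (some are not reported here), of each other list up to 4 called genes with the largest log2 fold change and a mean of at least 1 CPM, the targeted genes, and the 3 nearest profiles to each of Slc2a1, Hk2 and Ldha. A planned comparison of protein sequences was not run.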

Additional observations from a re-analysis of the deposited data

How the results depend on the processing

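The log2 fold changes of Hk2, Aldoa, Gapdh, Pgk1, Eno1, Pkm and Ldha were above 0 in all 18 alternatives. Of the 10 genes 5 were called, against 2 with all 8 libraries in 1 fit, 2 to 6 with each library left out in turn, and 0 with control replicates 1 and 2 both left out, an alternative chosen after seeing the data. Over all genes 2637 were called, against 4809 with no filter, 4018 in DESeq2, 1729 with the replicate block, 1548 with all 8 libraries, 668 to 7544 with each library left out, and 437 with both controls out. In the 13 other lists 32 were called, against 51 with no filter, 17 with all 8 libraries, 9 to 60 with each library left out, and 2 with both controls out. The replicate numbers did not pair the samples (correlations of deviations 0.00662, -0.17 and -0.07), and the block left 4 of the 10 genes called, without Eno1 (0.75).

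Some small log2 fold changes took the other sign. Slc2a1 was at -0.0119 with at least 10 counts in every library and at -0.0477 with the receptor-gene background subtracted. Hk1 was at 0.0369 and Pfkm at 0.0146 with no filter, and with both controls out Pgam2 was at -0.0628. With each library left out in turn Hk1 ranged from -0.138 to 0.0646, Eno3 from -0.475 to 0.0378 and Eno4 from -0.271 to 1.06. The median over all genes moved to -0.56 with no filter and -1.25 in DESeq2, where 42554 genes were fitted. The cause was not tested.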

Other observations

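Single genes of the branches of glucose metabolism moved both ways at 6 months in edgeR's test. Uap1, which makes UDP-N-acetylglucosamine, fell from 69.6, 75.9 and 71.6 to 38.0, 26.7 and 33.4 CPM (log2 -1.22, SE 0.16, adjusted p 0.00227), also with each library left out in turn (-1.29 to -1.06). Ogt, whose enzyme places that sugar on proteins, stood at 203, 198 and 366 CPM among controls, against 570, 545 and 518 CPM under the double knockout label. Ogt rose (log2 1.02, SE 0.22, adjusted p 0.0179), but not without control replicate 1 or 2, or replicate 1 or 2 labelled double knockout (0.87 to 1.45 over the 6 fits). The serine and one-carbon genes Psat1 (log2 0.69) and Shmt2 (log2 0.74) rose as well, and both calls were lost in 5 of the 6 fits.

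Further called genes of these lists lost their call in some of the 6 fits that left out 1 library. Sdhd, a subunit gene of succinate dehydrogenase, rose (log2 0.84; not without control replicates 1 (0.83) or 2 (0.83), or replicates 2 (0.93) or 3 (0.67) labelled double knockout). Sucla2, of succinyl-CoA synthetase, fell (log2 -0.74; not without control replicate 2 (-0.70), or replicates 1 (-0.67) or 3 (-0.62) of that label). Ppargc1a, a coactivator of mitochondrial genes, fell from 4.24, 5.83 and 4.30 to 1.23, 1.23 and 1.24 CPM (log2 -1.91), and Mxd1, a partner of MAX, fell too (log2 -0.85). Both were lost without replicates 1 (-1.86 and -0.75) or 2 (-1.87 and -0.73) labelled double knockout. Uqcrc1 of the respiratory chain (log2 0.71), the transaldolase gene Taldo1 (log2 0.51) and the phosphoglucomutase gene Pgm1 (log2 0.89) rose, with calls held only without control replicate 3.

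Tktl1, a transketolase-like gene, stood at 13.6, 4.59 and 1.11 CPM among controls, against 0.507, 0.409 and 0.169 CPM under the double knockout label (log2 -3.80). Its call was lost without control replicate 1 (-2.65) or any 1 library of that label (-3.96 to -3.47). It did not pass in limma-voom either (log2 -3.49, adjusted p 0.183). With control replicates 1 and 2 both left out the log2 fold change was -1.39. Fbp2, a fructose bisphosphatase gene, had 9, 26 and 13 counts in the controls and 0 in all libraries of the double knockout label. With a floor of 3 counts per library its level there was at least 6.59-fold lower, and its call was lost without control replicate 2 or any 1 library of that label. Fbp2 did not enter the test with the receptor-gene background subtracted. In that fit the falls of Slc2a4, Slc16a7 and Pygl did not pass (edgeR adjusted p 0.0672, 0.0729 and 0.0539). Those of Eno2, Ppargc1a, Tktl1 and Pygm passed.

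All 3 glycogen phosphorylase genes fell: Pygb (log2 -0.64), Pygl (log2 -1.04) and the muscle form Pygm (log2 -2.50). These are edgeR calls, and they were lost in 4, 4 and 5 of the 6 fits that left out 1 library. Pygl did not pass in DESeq2 (adjusted p 0.0618) or limma-voom (adjusted p 0.0621). Pygm passed in DESeq2 but not in limma-voom (adjusted p 0.14), and Pygb passed in both. Pygm held 11.8, 7.42 and 1.89 CPM in controls 1 to 3, the order of the summed skeletal muscle genes (20.2, 19.7 and 5.21 CPM). Whether the fall of Pygm comes from muscle RNA was not tested.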
